A study of Mus musculus with 8 samples.

Results

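The 5 genes described here are the 4 adult haemoglobin genes Hba-a1, Hba-a2, Hbb-bs and Hbb-bt, and Alas2, the erythroid form of aminolevulinate synthase. They were found by symbol among the 54232 genes of each count matrix, and every symbol matched 1 gene. The data are single-nucleus RNA sequencing of 8 libraries from a 2 mm cube of perilesional forebrain, snap-frozen, from male Swiss Webster mice of 10 weeks. There were 4 groups of 2 biological replicates, with no genetic alteration in any: control, BCAS (named only by this abbreviation, which the title ties to cerebral hypoperfusion), TBI (traumatic brain injury) and BCAS+TBI (both surgeries). Every mouse was of the same strain, sex and age. The labels give no time between surgery and collection, do not say whether the control operation was a sham, and do not say whether tissue was pooled. In the libraries, 152556 unique molecular identifiers (UMIs, each 1 counted RNA molecule) belonged to the 4 haemoglobin genes and 3893 to Alas2, over 53390 barcodes.

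Haemoglobin is a tetramer of alpha and beta globin chains, each holding a haem group, and fills red blood cells with the protein that carries oxygen. Its messenger RNA is made at very high levels in erythroid precursors in bone marrow and persists in reticulocytes, the youngest circulating red cells, which in mammals have lost their nucleus. Alas2 catalyses the first and rate-limiting step of haem synthesis in erythroid cells, while its relative Alas1 does so in most other tissues. Brain tissue holds blood in its vessels. Whether the mice were perfused is not given in the sources used here.

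The haemoglobin genes come as near-identical pairs, which bears on how their UMIs can be split. In the GENCODE M21 annotation of GRCm38, Hba-a1 lies at chr11:32283511-32284465 and Hba-a2 at chr11:32296489-32297298, both on the plus strand with 3 exons. Hbb-bs lies at chr7:103826534-103828096 and Hbb-bt at chr7:103812524-103813996, both on the minus strand with 3 exons. The coding sequences of Hba-a1 and Hba-a2 have 426 bases without the stop codon and differ at 1, written C381T (Hba-a1 base, position counted from the first coding base, Hba-a2 base). Those of Hbb-bs and Hbb-bt have 441 bases and differ at C417T. The 30 coding bases around each difference are shown in the direction of the gene, from GRCm38, with the differing base in capitals.
Hba-a1, coding positions 367 to 396: catgcctctctggaCaaattccttgcctct
Hba-a2, coding positions 367 to 396: catgcctctctggaTaaattccttgcctct
Hbb-bs, coding positions 403 to 432: gtggctggagtggcCgctgccctggctcac
Hbb-bt, coding positions 403 to 432: gtggctggagtggcTgctgccctggctcac
After the last coding base, where reads of a 3′ kit mostly fall, the 77 bases compared held 0 differences between Hba-a1 and Hba-a2, whereas 85 of 134 differed between Hbb-bs and Hbb-bt in an ungapped comparison. The split between Hba-a1 and Hba-a2 is therefore uncertain and their sum is used below as the alpha chain. How reads that match both genes were counted is not given, so the sum may leave some of them out. The reference genome is of another strain than these outbred mice, and the alleles they carry at the beta globin locus were not tested.

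Since the 4 haemoglobin genes moved together over libraries (below), the 100 bases before the RefSeq start of 1 gene of each kind are shown, from the GRCm38.p6 promoter table, in the direction of the gene. All 5 genes matched that table. Capitals mark matches to motifs searched on both strands: the CACCC box, the CCAAT box, the TATA box (searched as TATAA) and the GATA motif (searched as AGATAA). A match on the opposite strand is capitalised as its reverse complement, and neighbouring matches run together.
Hba-a1, chr11:32283572-32283671, plus strand: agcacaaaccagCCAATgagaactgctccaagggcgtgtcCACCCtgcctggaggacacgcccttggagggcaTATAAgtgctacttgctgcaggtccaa
Hbb-bs, chr7:103827929-103828028, minus strand: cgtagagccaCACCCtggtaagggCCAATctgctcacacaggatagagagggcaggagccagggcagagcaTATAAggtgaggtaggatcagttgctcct
Alas2, chrX:150547317-150547416, plus strand: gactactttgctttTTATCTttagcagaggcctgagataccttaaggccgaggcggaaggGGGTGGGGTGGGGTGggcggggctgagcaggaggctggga
Each of the 4 haemoglobin windows held the CACCC box, the CCAAT box and the TATA box on the strand of the gene, the last of these 27 to 30 bases before the start. The Alas2 window held 3 matches to the CACCC box and 1 to the GATA motif, all on the opposite strand, and no match to the CCAAT or the TATA box. Among 32851 promoter windows of the same length, 27.2% held the CACCC box, 18.9% the CCAAT box, 10.2% the TATA box and 3.59% the GATA motif. The matches are a description of letters. For some of these genes GENCODE models begin upstream of the RefSeq start.

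The libraries held 6191 to 7882 barcodes each, against a stated target of about 3000 captures, and 28118725 to 56135192 UMIs. By their totals they fell into 2 sets that do not follow the groups: set 1 (control 1, BCAS 1, TBI 1 and BCAS+TBI 2, with 28118725 to 33363564 UMIs) and set 2 (control 2, BCAS 2, TBI 2 and BCAS+TBI 1, with 42651388 to 56135192). Each set thus held 1 library of each group. Mitochondrial genes took 1.20% to 2.77% of UMIs in set 1 and 0.511% to 1.04% in set 2. These sets were defined from the data and are not the study's groups, and what made them differ is not in the labels. Any 2 libraries shared 5 to 20 barcode sequences, 0 of them haemoglobin-rich in both. Levels are given as CPM, the UMIs of a gene scaled to a total of 1000000 UMIs. UMIs count molecules from 1 end, and CPM was not divided by transcript length.

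Haemoglobin RNA varied more than 10-fold between libraries, and the 4 genes rose and fell together. Summed haemoglobin stood at 146 CPM in control 1, 256 in control 2, 568 in BCAS 1, 225 in BCAS 2, 1336 in TBI 1, 145 in TBI 2, 114 in BCAS+TBI 1 and 1564 in BCAS+TBI 2. The highest and the lowest library thus carried the same label, BCAS+TBI, and the 2 set 1 libraries with TBI stood above all others. Hba-a1, the main alpha globin signal, was at 63.3 and 89.3 CPM in the control libraries, 207 and 87.1 in BCAS, 454 and 62.2 in TBI, and 45.8 and 565 in BCAS+TBI, in replicate order. Hbb-bs, the main beta globin signal, was at 73.6 and 143 CPM in control, 313 and 117 in BCAS, 764 and 73.4 in TBI, and 56.0 and 834 in BCAS+TBI. In each of these genes the groups overlapped, because the replicates of TBI and of BCAS+TBI lay at opposite ends of the range. Hbb-bt, the minor beta globin, was at 7.82 and 20.5 CPM in control, 45.4 and 18.2 in BCAS, 109 and 8.65 in TBI, and 10.4 and 152 in BCAS+TBI. Hba-a2 was at 1.24 and 2.54 CPM in control, 3.57 and 2.55 in BCAS, 8.93 and 1.22 in TBI, and 1.55 and 12.99 in BCAS+TBI. In such sums, fewer cells of a type and less RNA per cell cannot be told apart.

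**Figure D1:**
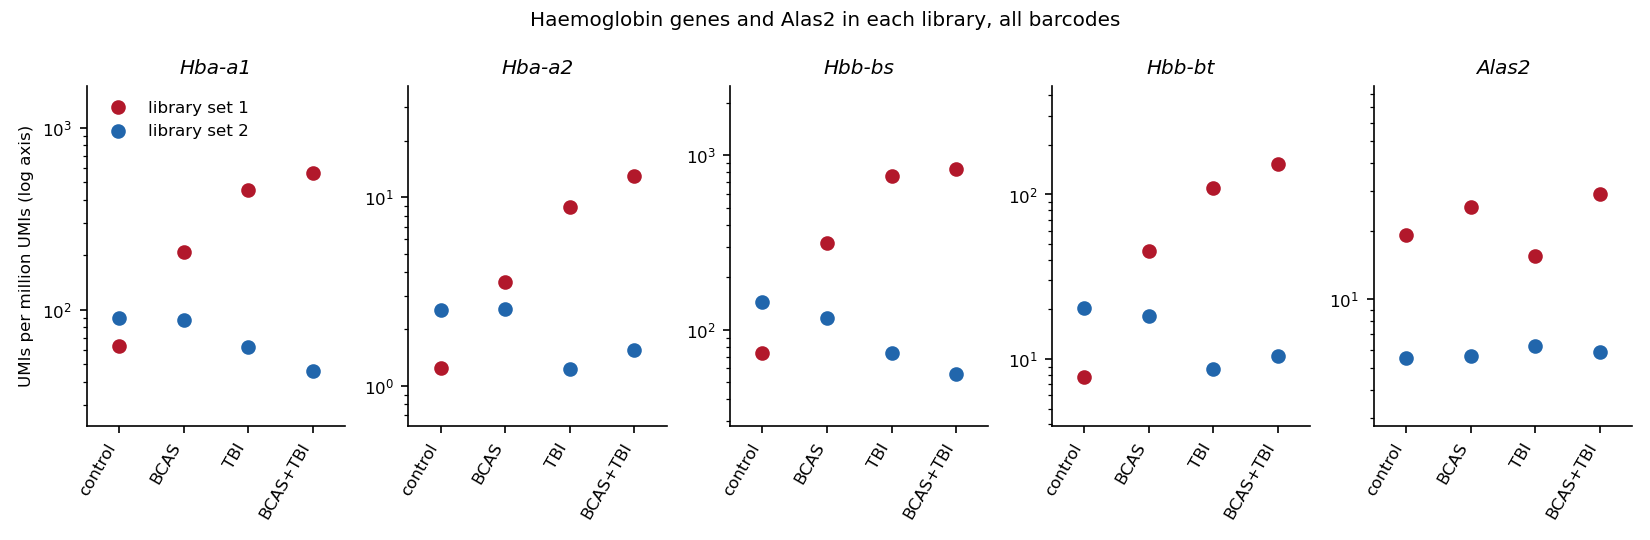
Level of each gene in every library, in CPM over all barcodes (log axis, scaled separately per gene), by group on the x axis; 1 point is 1 library, red for set 1 and blue for set 2. The 4 haemoglobin genes are highest in the set 1 libraries TBI 1 and BCAS+TBI 2, while Alas2 separates the sets (15.5 to 29.0 against 5.53 to 6.20 CPM) whatever the group.

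Traumatic injury did not give a difference in any of the 5 genes that passed the test. Counts summed per library were fitted with edgeR's quasi-likelihood test over 24569 genes in all 8 libraries, and p-values were adjusted over all genes by Benjamini and Hochberg. For TBI averaged over BCAS, the log2 fold changes were 1.33 (SE 0.81) for Hba-a1, 1.23 (SE 0.76) for Hba-a2, 1.41 (SE 0.92) for Hbb-bs, 1.61 (SE 0.96) for Hbb-bt and -0.01 (SE 0.65) for Alas2, with edgeR adjusted p-values of 1.00. None of the 5 was called, as was true of 0% of all genes (72 genes had an unadjusted p under 0.05, and DESeq2 called 0 too). The size of the haemoglobin difference rested on TBI 1 and BCAS+TBI 2. Without TBI 1 the log2 fold changes were 0.42 for Hba-a1, 0.33 for Hba-a2, 0.28 for Hbb-bs and 0.35 for Hbb-bt. Without BCAS+TBI 2 they were 0.05, 0.20, 0.00 and 0.21 in the same order, and without both (an alternative added after seeing the data) they were -0.86 for Hba-a1, -0.70 for Hba-a2, -1.13 for Hbb-bs, -1.05 for Hbb-bt and -1.02 for Alas2. That last fit sets TBI libraries of set 2 alone against libraries of both sets, so TBI and set cannot be told apart in it.

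Within the sets, the direction differed. In set 1, the mean of summed haemoglobin over the 2 libraries with TBI was 4.06 times that over the 2 without, and in set 2 it was 0.539 times. Every haemoglobin gene followed: in set 1 both TBI libraries lay above both libraries without TBI, and in set 2 both lay below. For Hba-a1 the log2 ratio of means was 1.92 in set 1 and -0.71 in set 2, and for Hbb-bs 2.05 and -1.01. This difference between sets was not tested. With the set as a further term in the edgeR fit, the TBI log2 fold changes were 0.67 for Hba-a1, 0.72 for Hba-a2, 0.57 for Hbb-bs, 0.74 for Hbb-bt and 0.04 for Alas2, with 0% of genes called.

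Hypoperfusion surgery likewise gave 0 calls among the 5 genes. For BCAS averaged over TBI the edgeR log2 fold changes were 0.58 for Hba-a1, 0.59 for Hba-a2, 0.52 for Hbb-bs, 0.79 for Hbb-bt and 0.50 for Alas2, each smaller than its standard error of 0.65 to 0.94. Of all genes 0% were called (60 with an unadjusted p under 0.05; DESeq2 called 2 genes, neither of them described here). For the interaction, which asks whether BCAS changes the effect of TBI, they were -0.61, -0.07, -0.78, -0.57 and 0.38 in the same order, again with 0% of genes called (65 with an unadjusted p under 0.05, DESeq2 0). For BCAS+TBI against TBI they were 0.28, 0.56, 0.13, 0.51 and 0.69, with 0% of genes called (93 with an unadjusted p under 0.05, DESeq2 0). Leaving out TBI 1 or BCAS+TBI 2 moved the haemoglobin genes to opposite signs in these 3 comparisons: for Hbb-bs, BCAS averaged over TBI was 1.65 without TBI 1 and -0.89 without BCAS+TBI 2.

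Haemoglobin RNA was concentrated in few barcodes. A barcode with at least 10 haemoglobin UMIs is called haemoglobin-rich here; 486 of 53390 barcodes (0.910%) were, and they held 139755 of the haemoglobin UMIs (91.6%). The threshold used these counts, so the share is a description. Of the others, 43522 barcodes held 0 haemoglobin UMIs, 7458 held 1 and 1924 held 2 to 9. Near the threshold there was no gap: 37 barcodes held 8 haemoglobin UMIs, 17 held 9, 23 held 10 and 19 held 11. The 35 barcodes with at least 1000 haemoglobin UMIs held 50.9% of all, and haemoglobin reached 89.9% of the UMIs of 1 barcode. Both alpha and beta UMIs were found in 483 of the 486.

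Per library, haemoglobin-rich barcodes numbered 30 in control 1, 37 in control 2, 68 in BCAS 1, 46 in BCAS 2, 139 in TBI 1, 34 in TBI 2, 21 in BCAS+TBI 1 and 111 in BCAS+TBI 2. As shares of barcodes these were 0.485%, 0.582%, 1.08%, 0.634%, 2.23%, 0.431%, 0.335% and 1.62%, so the order was close to that of the summed level. A handful of barcodes set much of each total, with the 5 richest holding 38.8% to 71.2% of a library's haemoglobin UMIs. Outside the haemoglobin-rich barcodes, haemoglobin stood at 42.5 to 111 CPM in set 1 and at 15.7 to 20.7 CPM in set 2. In set 1 it was 92.4 and 111 CPM in the TBI libraries against 42.5 and 50.9 without TBI, whereas in set 2 the ranges overlapped (15.7 to 20.7 with, 19.3 to 20.02 without).

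Most haemoglobin-rich barcodes carried endothelial markers. Barcodes were assigned to 12 classes by a gate on fixed markers (at least 3 different markers of a class and 2 more than of any other), which placed 32849 (61.5%), with 10785 of them at the limit of the gate; the rest are called ungated. Of 486 haemoglobin-rich barcodes, 354 (72.8%) were endothelial-gated and 87 were ungated. Endothelial cells line blood vessels, and their gate used Flt1, Cldn5, Pecam1, Mecom, Slco1a4, Abcb1a, Adgrl4, Ptprb, Egfl7 and Tek. The share of endothelial-gated barcodes was higher with more haemoglobin up to 99 UMIs, from 4.20% at 0 UMIs through 5.34% at 1, 11.2% at 2 to 4 and 42.1% at 5 to 9 to 59.8% at 10 to 19 and 76.0% at 20 to 99. It was 79.3% from 100 to below 1000 and 74.3% at 1000 or more. Doublets were not called, so a barcode can hold RNA of more than 1 source.

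Seen from the classes, 354 of 2860 endothelial-gated barcodes were haemoglobin-rich, 12.4% (exact 95% interval 11.2% to 13.6%). Mural cells, the pericytes and smooth muscle of the same vessels, followed with 8 of 414 (1.93%), and ungated barcodes with 87 of 20541 (0.424%). Astrocytes had 0.288%, oligodendrocytes 0.191%, inhibitory neurons 0.115% and excitatory neurons 0.0827%. Microglia had 0 of 1101 (upper bound 0.334%). Median UMIs were 1511 in microglia and 1453.5 in endothelial barcodes, and these shares were not compared at equal depth. The intervals cover counting error only. In every library the endothelial share was the highest of the 12 classes: 7.52% in control 1, 6.56% in control 2, 15.4% in BCAS 1, 8.21% in BCAS 2, 22.5% in TBI 1, 6.63% in TBI 2, 7.66% in BCAS+TBI 1 and 18.1% in BCAS+TBI 2. In set 1 both TBI libraries stood above both without TBI, and in set 2 the ranges overlapped.

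**Figure D2:**
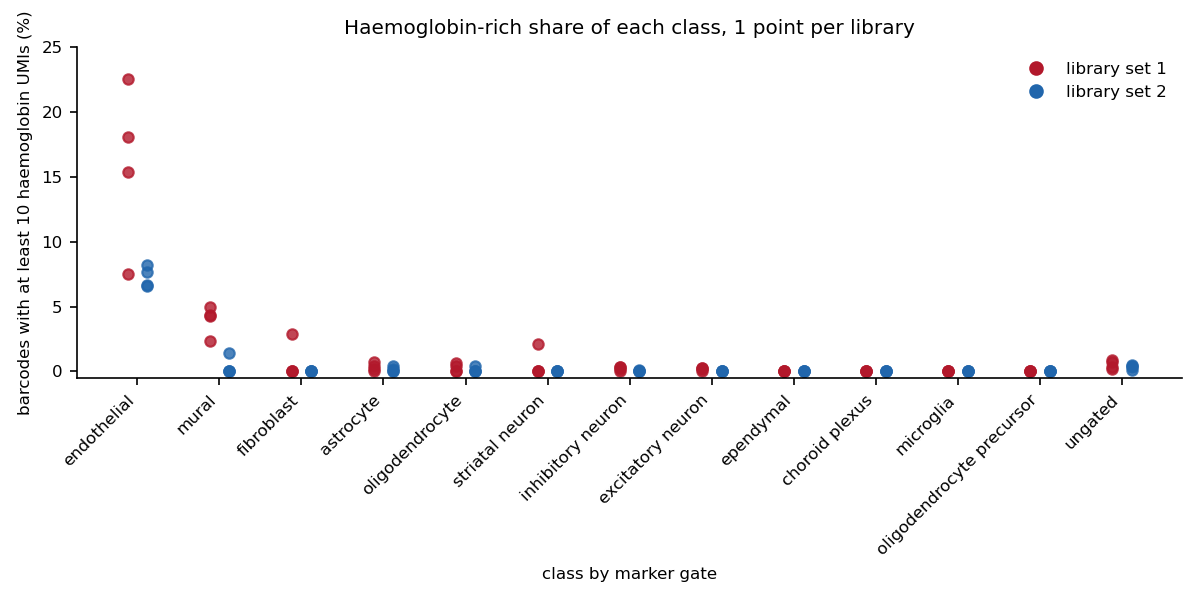
Percent of the barcodes of each gated class that held at least 10 haemoglobin UMIs; 1 point is 1 library, red for set 1 and blue for set 2. Endothelial-gated barcodes lie between 6.56% and 22.5%, above every other class in all 8 libraries.

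Haemoglobin-rich endothelial barcodes differed in size and quality from the other endothelial barcodes, and these values stand beside every result on them. Their median UMIs were 1752 to 7321.5 per library against 988 to 1563, higher in 8 of 8 libraries. Mitochondrial genes took a median of 3.89% to 7.16% of their UMIs against 1.91% to 7.80% (higher in 7 of 8), and ribosomal protein genes were higher in 8 of 8. Of endothelial barcodes with under 1% mitochondrial UMIs, 0.744% were haemoglobin-rich, against 3.17% at 1% to 2%, 13.5% at 2% to 5%, 19.1% at 5% to 10% and 15.7% at 10% and above. What part depth and mitochondrial content have in the endothelial result was not tested. Of the 486 haemoglobin-rich barcodes, 201 passed limits of 500 UMIs, 300 genes and 5% mitochondrial UMIs.

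A low level of haemoglobin RNA was present in every class below the threshold, and there too the endothelial class was highest. Over libraries, endothelial-gated barcodes with under 10 haemoglobin UMIs held a mean of 0.349 to 1.18 haemoglobin UMIs per nucleus (median 0.409). Excitatory neurons held 0.0923 to 0.469 (median 0.145) and microglia 0.0635 to 0.458 (median 0.187). Endothelial barcodes ranked first of 12 classes in 8 of 8 libraries. Their median UMIs were 988 to 1563, against 4788 to 9416 in excitatory neurons. In TBI 1, classes as unlike as astrocytes (0.382), excitatory neurons (0.415), oligodendrocytes (0.452) and microglia (0.458) held similar numbers of UMIs per nucleus, fibroblasts 0.588 and endothelial barcodes 1.18. Scaled to CPM, where depth is divided out, endothelial barcodes ranked first or second in each library, behind mural cells or fibroblasts where second.

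The share of nuclei with any haemoglobin UMI, haemoglobin-rich barcodes included, was compared at equal depth by thinning each barcode to 1000 UMIs. It was 30.5% in endothelial barcodes, 14.9% in fibroblasts, 11.8% in mural cells, 9.05% in astrocytes, 8.81% in microglia, 7.69% in oligodendrocytes, 3.61% in inhibitory and 3.45% in excitatory neurons, the last with a median of 6945 UMIs before thinning. Before thinning, 36.2% of endothelial and 16.5% of excitatory barcodes held a haemoglobin UMI. Among barcodes under the threshold these unthinned shares were 27.1% and 16.4%. The neuronal share is given as the level in a class outside the vessels. Of 2860 endothelial barcodes 2037 had enough UMIs to be thinned, of 414 mural ones 187, and of 12087 excitatory ones 12051.

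**Figure D3:**
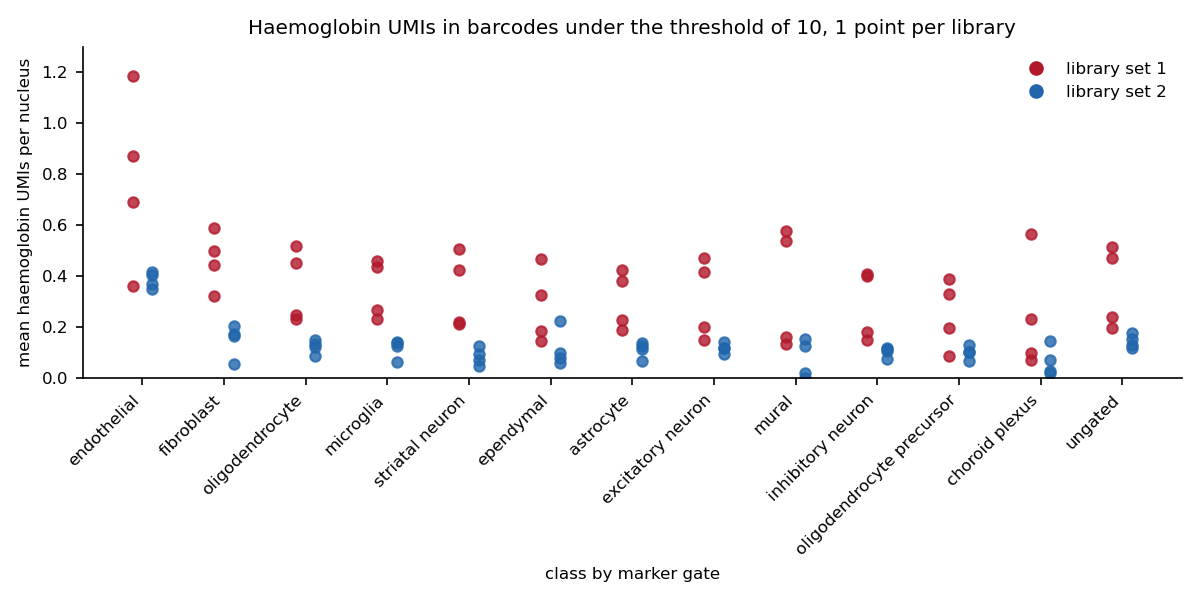
Mean haemoglobin UMIs per nucleus in barcodes under the threshold of 10, by gated class; 1 point is 1 library, red for set 1 and blue for set 2. Endothelial barcodes are the highest class in each library (0.349 to 1.18), and set 1 libraries with TBI are high in every class.

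The proportions of the 4 genes were alike across libraries that differed more than 10-fold in level. Hbb-bs made up 49.2% to 57.2% of haemoglobin UMIs, Hba-a1 34.0% to 43.4%, Hbb-bt 5.36% to 9.73% and Hba-a2 0.627% to 1.36%. Alpha chains together were 34.1% to 43.1% of haemoglobin UMIs in haemoglobin-rich barcodes (median 37.7%) and 42.5% to 58.2% in the rest (median 47.0%). These are shares of counted UMIs, and reads shared by the alpha genes may be missing from them. The alpha share was higher in the rest in 8 of 8 libraries, a description, since the same counts chose the barcodes. In the 185 barcodes with at least 100 haemoglobin UMIs, alpha chains had a median share of 36.4% (26.1% to 46.1% between the 5th and 95th percentiles), and Hbb-bs was the most abundant gene in 177. The median was 35.8% in the 145 of these that were endothelial-gated and 39.5% in the 36 that were ungated. Hbb-bt was detected in 181 of the 185 and Hba-a2 in 149.

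Alas2 followed another pattern than haemoglobin. It stood at 19.2 CPM in control 1, 5.53 in control 2, 25.5 in BCAS 1, 5.63 in BCAS 2, 15.5 in TBI 1, 6.20 in TBI 2, 5.86 in BCAS+TBI 1 and 29.0 in BCAS+TBI 2. The sets did not overlap: 22.3 ± 6.08 CPM in set 1 against 5.81 ± 0.299 in set 2 (mean ± SD, n = 4 libraries each). Within a set, libraries with and without TBI had log2 ratios of means of -0.01 in set 1 and 0.11 in set 2. Of the 3893 Alas2 UMIs, 222 (5.70%) fell in haemoglobin-rich barcodes, which were 0.910% of all barcodes. The 91.6% of haemoglobin UMIs in them is not a like measure, since haemoglobin chose these barcodes. Alas2 lies at chrX:150547375-150570638 on the plus strand with 11 exons, wholly inside the annotated span of Apex2 on the opposite strand. Apex2, an endonuclease gene, was counted at 83.5 to 96.3 CPM in set 1 and 99.96 to 112 CPM in set 2. Whether counting used strand is not given in the sources used here, so reads of the overlapping genes may not have been told apart.

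Most Alas2 UMIs lay in nuclei without haemoglobin, which were also most of the barcodes. The 43522 barcodes (of 53390) with 0 haemoglobin UMIs held 2684 Alas2 UMIs in 2470 barcodes (5.68%), or 10.96 CPM of non-haemoglobin UMIs. The rate was 13.6 CPM in barcodes with 1 to 9 haemoglobin UMIs and 12.998 in those with 10 to 99. It rose to 92.3 in the 158 barcodes with 100 or more haemoglobin UMIs that made up at most 50% of their UMIs, where 66 (41.8%) held Alas2. In the 27 barcodes with over 50% haemoglobin it was 5539 CPM, and 21 of them (77.8%) held Alas2. Median depths were 4388, 4570, 3647, 6681 and 918 UMIs in these 5 steps, so the highest share of barcodes with Alas2 came with the lowest depth. These steps differ in their mix of the library sets, with 43.3% of the barcodes from set 1 at 0 haemoglobin UMIs and 68.3% at 1 to 9. Within set 1 the 5 rates were 22.0, 20.3, 15.04, 100.2 and 6898 CPM, and within set 2 they were 5.69, 4.97, 8.95, 73.0 and 3482 CPM. In both sets the rate was higher at 100 or more haemoglobin UMIs than at fewer, while the step from 10 to 99 rests on 30 and 9 Alas2 UMIs. By class, the median Alas2 level over libraries was 14.2 CPM in inhibitory neurons, 10.6 in excitatory neurons, 13.5 in endothelial barcodes and 3.75 in microglia.

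**Figure D4:**
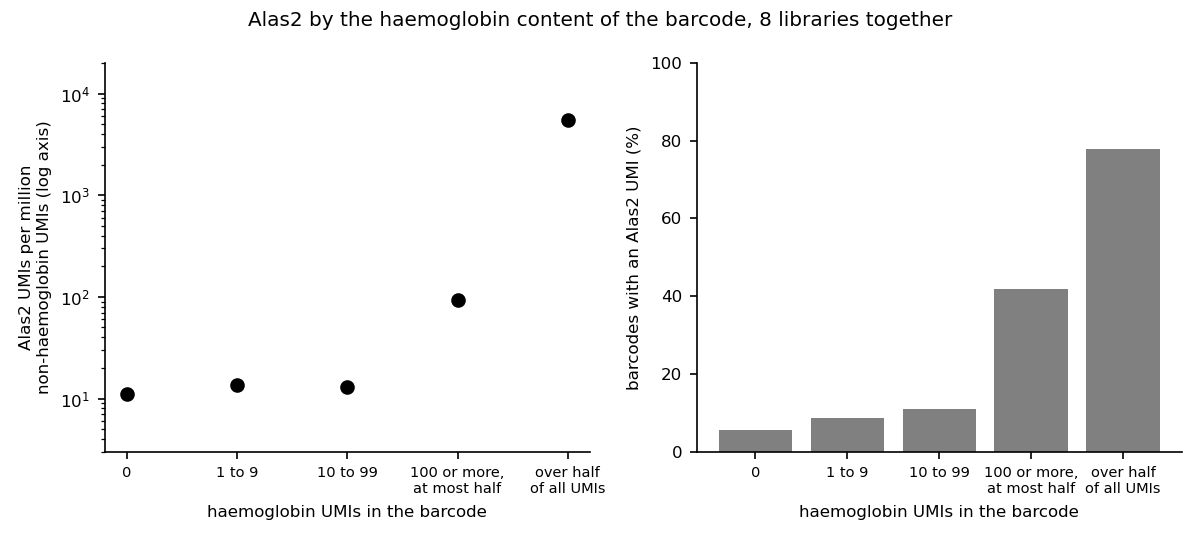
Alas2 by the haemoglobin UMIs of the barcode, all 8 libraries together: left, Alas2 in CPM of non-haemoglobin UMIs (log axis); right, percent of barcodes with an Alas2 UMI. The rate is 10.96 to 13.6 CPM up to 99 haemoglobin UMIs, 92.3 at 100 or more, and 5539 where haemoglobin is over 50% of the UMIs.

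In the 27 barcodes made mostly of haemoglobin, erythroid transcripts were detected at higher rates than elsewhere, although mitochondrial and common transcripts led their other UMIs. They came from 7 libraries (0 in control 1, 2 each in control 2 and BCAS 1, 5 in BCAS 2, 4 each in TBI 1 and TBI 2, 1 in BCAS+TBI 1, 9 in BCAS+TBI 2) and held 18.3% of haemoglobin UMIs. Their medians were 918 UMIs, 181 genes and 70.9% haemoglobin, and 25 were ungated. After haemoglobin, Alas2 was their ninth most abundant gene (56 UMIs), behind transcripts such as Gm42418 (1627 UMIs), the mitochondrial ribosomal RNA mt-Rnr2 (440) and Malat1 (187). Of 28 erythroid genes in the files, 15 were detected, with 172 UMIs in 22 of the 27 barcodes. Among them, Mkrn1, a ubiquitin ligase abundant in reticulocytes, reached 3660 CPM of non-haemoglobin UMIs against 46.0 in other barcodes. Bnip3l, which removes mitochondria from maturing red cells, reached 2868 against 34.8, and Bpgm, which makes the red-cell metabolite that lowers oxygen affinity, 2473 against 16.5.

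Some erythroid genes were sparse in the same 27 barcodes. The anion exchanger Slc4a1 had 5 UMIs, while the erythroid transcription factors Klf1 and Gata1 had 0. Of 12 haem synthesis genes 7 were detected, led after Alas2 by the iron importer Slc25a37 (18 UMIs) and the ferrochelatase Fech (12). Fam46c, found among the leading genes after their values were seen, had 21 UMIs, or 2077 CPM against 1.16 elsewhere. The ferritin genes Ftl1 and Fth1 had 47 and 37 UMIs. Neutrophil, lymphocyte and monocyte lists had 0 UMIs, platelet genes had 2, and endothelial markers had 27 in 2 barcodes.

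Counts were next summed per library over haemoglobin-rich barcodes and over the rest, and compared within libraries with edgeR, without the 4 haemoglobin genes, which chose the barcodes. Endothelial markers were higher there: of 22788 genes tested, 50.8% were called (19.9% higher and 30.9% lower in haemoglobin-rich barcodes), and all 10 endothelial gate markers were higher, with a median log2 fold change of 4.39 against -0.30 over all genes. By the naming rule, the leading higher genes were Hspb1, Klf2, Ly6a, Emcn, Higd1b, Crip1, Acvrl1, Nostrin, Sox17 and Cdh5, with log2 fold changes of 4.47 to 4.99. Klf2 is a flow-responsive transcription factor of endothelium, Sox17 and Acvrl1 act in vessel formation, and Cdh5 encodes the endothelial cadherin. Higd1b is a pericyte gene. Hspb1, a small heat shock protein, had 254 ± 131 CPM of non-haemoglobin UMIs against 7.28 ± 5.81 (mean ± SD, n = 8 libraries; log2 fold change 4.99, SE 0.16, edgeR adjusted p = 1.23e-49).

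Vip, a neuropeptide of interneurons, led the lower genes, with 7.84 ± 2.95 CPM in haemoglobin-rich barcodes and 51.8 ± 31.0 in the rest (log2 fold change -3.02, SE 0.23). Kcnmb2, Htr2c, Cntnap4, Cntnap5c, Trhde, Grip1, Col19a1, Slc4a3 and Scn9a followed, with log2 fold changes of -2.54 to -1.66. Since 72.8% of the haemoglobin-rich barcodes were endothelial-gated, these differences describe which nuclei passed the threshold.

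Alas2 was higher in haemoglobin-rich barcodes in 7 of 8 libraries. In non-haemoglobin CPM it was 15.1 against 19.2 in control 1, 22.1 against 5.31 in control 2, 65.9 against 24.8 in BCAS 1, 43.7 against 5.27 in BCAS 2, 48.3 against 14.1 in TBI 1, 69.8 against 6.04 in TBI 2, 50.8 against 5.74 in BCAS+TBI 1 and 70.8 against 27.7 in BCAS+TBI 2. The exception, control 1, had only 2 Alas2 UMIs in its haemoglobin-rich barcodes. The log2 fold change was 1.73 (SE 0.18, edgeR adjusted p = 2.45e-14). Of the erythroid list, 19 of the 28 genes present passed the filter on low counts, 8 were higher and 4 lower, beside 19.9% and 30.9% of all genes. Ube2l6 (4.18), Isg20 (5.44), Bnip3l (2.04), Bpgm (1.26) and Mkrn1 (0.94) were among the higher and the cytoskeletal genes Sptb (-1.13), Ank1 (-1.33) and Add2 (-1.30), which neurons also express, among the lower.

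Over all genes in this fit 19.9% were higher and 30.9% lower, beside which the counts of the next lists stand. Of 12 haem synthesis genes 5 were higher (Alas1 1.75, Alas2 1.73, Alad 2.34, Urod 1.95, Fech 0.55) and 1 lower (Uros -0.52), with a median over the list of 0.10. The call of Uros was lost whichever of the 8 libraries was left out. Of 11 clearance genes tested 9 were higher and 0 lower, with a median of 2.11. They included the iron exporter Slc40a1 (4.18), the ferritins Ftl1 (3.40) and Fth1 (2.11), the biliverdin reductase Blvrb (3.27), the transferrin receptor Tfrc (2.02) and the haem oxygenase Hmox1 (2.31). In the same fit 4 of 7 neutrophil, 5 of 9 monocyte and macrophage, 3 of 7 lymphocyte and 2 of 5 platelet genes were higher, many in few libraries (S100a9 in 4 of 8, Cd3e in 2), as were 86 of 95 ribosomal protein genes and 17 of 31 mitochondrial ones. Of the vessel lists, 6 of 9 arterial, 8 of 8 capillary and 6 of 8 venous genes were higher. Hp, which binds free haemoglobin (2.84), was higher in only 2 of 8 libraries and its receptor Cd163 (1.71) in 3, and Cd163 was no longer called without BCAS+TBI 2 (0.87).

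To compare like with like, the same fit was made within endothelial-gated barcodes only, an alternative added after seeing the data, in the 7 libraries with at least 20 haemoglobin-rich ones (BCAS+TBI 1 had 19). Here 23.4% of 10958 genes were called (10.5% higher, 12.9% lower). The log2 fold change of Alas2 was 2.99 here and 1.73 among all barcodes. The barcodes it was compared with and the libraries used differ between these fits, so the sizes are not set against each other. The other endothelial barcodes held only 1 to 11 Alas2 UMIs per library. Alas2 thus passed the filter on low counts through the haemoglobin-rich barcodes, and its p-value below carries that limit. It was at 10.2 against 16.3 CPM in control 1, 43.8 against 2.67 in control 2, 79.0 against 5.26 in BCAS 1, 54.2 against 1.03 in BCAS 2, 51.1 against 7.36 in TBI 1, 37.5 against 3.98 in TBI 2 and 61.0 against 9.07 in BCAS+TBI 2. It was higher in 6 of 7 libraries, again except control 1, with 48.1 ± 21.4 against 6.52 ± 5.08 CPM (mean ± SD, n = 7; log2 fold change 2.99, SE 0.36, edgeR adjusted p = 2.23e-05).

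Fam46c was higher in 7 of 7 libraries. It was at 10.2 against 1.48 CPM in control 1, 8.76 against 0.890 in control 2, 15.8 against 0 in BCAS 1, 31.6 against 0 in BCAS 2, 21.9 against 1.84 in TBI 1, 18.7 against 0 in TBI 2 and 26.4 against 0 in BCAS+TBI 2. These levels rest on few molecules: 1 UMI against 1 in control 1, 2 against 1 in control 2, 21 against 2 in TBI 1, and 4, 7, 2 and 13 against 0 in BCAS 1, BCAS 2, TBI 2 and BCAS+TBI 2. The edgeR adjusted p was 3.51e-05, and the gene passed the filter on low counts through the haemoglobin-rich barcodes. The other higher genes under the naming rule were Ptma (0.93), Rgs5 (0.88), Sod1 (0.96), Mkrn1 (1.02), Slfn5 (0.80), Sept4 (0.75), Pth1r (0.99), Gnai2 (0.68) and Fech (1.08). Fech, the last enzyme of haem synthesis, had 56.3 ± 10.7 against 25.8 ± 3.49 CPM (edgeR adjusted p = 0.000244). Rgs5 and Pth1r are genes of pericytes, which sit on the same capillaries.

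By lists, 6 of 12 erythroid genes tested were higher and 2 lower, with a median log2 fold change of 0.43 against -0.05 over all genes and 10.5% of all genes called higher. The higher ones were Ube2l6 (2.01), Isg20 (1.59), Mkrn1 (1.02), Slc25a37 (0.83), Bnip3l (0.78) and Bpgm (0.73), and the lower ones Ank1 (-1.88) and Add2 (-1.43). Of 8 haem synthesis genes 5 were higher (Alas2, Fech, Slc25a37, Alad at 0.73 and Alas1 at 0.44) and 0 lower. These list counts include genes that passed the filter on low counts through the haemoglobin-rich barcodes. Alas2 is 1 of them, and Ube2l6, with 3 to 9 UMIs per library in the other endothelial barcodes, is another. Of 9 clearance genes 4 were higher (Ftl1 1.04, Fth1 0.87, Blvrb 0.70, Slc40a1 0.67) and 0 lower. The erythroid anion exchanger Slc4a1 was not tested here, with 3 UMIs in all haemoglobin-rich and 0 in all other endothelial barcodes. The list also holds genes that endothelium expresses, such as Bnip3l at 132 ± 27.9 CPM in the other endothelial barcodes.

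Of the 10 gate markers, which chose the barcodes of both kinds, Cldn5 (0.50) and Abcb1a (0.47) were called higher and 0 lower, with a median of 0.17. That both kinds carried these markers was set by the gate. Lists of vessel types were chosen after seeing the data and are set beside 10.5% of all genes higher and 12.9% lower. No difference between these lists was tested. Of 8 capillary genes 4 were higher, the transporters Slc16a1 (0.56) and Slc7a5 (0.42), the carbonic anhydrase Car4 (0.49) and Rgcc (0.48). Of 8 arterial genes 0 were higher and 2 lower, Bmx (-0.90) and Vegfc (-1.50). Of 6 venous genes Slc38a5 (0.75), Nr2f2 (0.49) and Tmem252 (0.54) were higher and Vwf (-0.65) lower.

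Eln, which encodes elastin of larger vessel walls, led the lower genes. It was at 51.1 against 174 CPM in control 1, 8.76 against 256 in control 2, 15.8 against 189 in BCAS 1, 4.52 against 97.4 in BCAS 2, 28.2 against 190 in TBI 1, 18.7 against 118 in TBI 2 and 12.2 against 212 in BCAS+TBI 2. Every library was lower, with a log2 fold change of -3.28 (SE 0.23, edgeR adjusted p = 8.45e-08). Fbln5, another elastic fibre gene, had 3.87 ± 3.99 against 49.8 ± 20.5 CPM (log2 fold change -3.48). Galntl6 (-2.61), Sorcs3 (-2.14), Cdh8 (-2.30), Syt11 (-1.49), Epha6 (-1.83), Gpm6a (-1.25), Gabbr2 (-1.88) and Epha5 (-1.80) completed the list.

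Ribosomal protein and mitochondrial genes were mostly higher in the same barcodes. Few markers of other blood cells could be tested, and those called higher were neutrophil genes, high in some libraries only. Summed neutrophil genes (10 genes) ranged from 0 to 1229 CPM in haemoglobin-rich and from 2.67 to 191 CPM in other endothelial barcodes, and between 3 and 10 of the 10 genes were at 0 in the former. The sum was higher in BCAS 1 (1229 against 92.9 CPM) and BCAS+TBI 2 (563 against 103). It was lower in control 1 (19.9 against 57.6) and TBI 1 (114 against 191). The other libraries held 0 to 2 such UMIs in haemoglobin-rich endothelial barcodes. S100a8 (2.12), S100a9 (1.84) and Lcn2 (1.34) were called higher, but S100a9 was higher in only 2 of 7 libraries, at 889 against 63.1 CPM in BCAS 1 and 242 against 22.7 in BCAS+TBI 2, and Ly6g was at 0 in every library. In the same fit 77 of 90 ribosomal protein genes were higher and 2 lower (median 0.88), and 10 of 14 mitochondrial genes were higher (median 0.57). Of the other lists, 0 of 3 monocyte and macrophage genes and 0 of 2 platelet genes were higher (the platelet list's Nrgn, also a neuronal gene, was lower at -0.79), and 0 lymphocyte genes had enough counts. Summed monocyte and macrophage genes were higher in haemoglobin-rich endothelial barcodes of TBI 1 (108 against 64.3 CPM) and BCAS+TBI 2 (113 against 62.3). They were near equal in control 1 (39.8 against 38.4) and lower in the other libraries. The part of depth, mitochondrial and ribosomal RNA in the other differences was not tested.

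**Figure D5:**
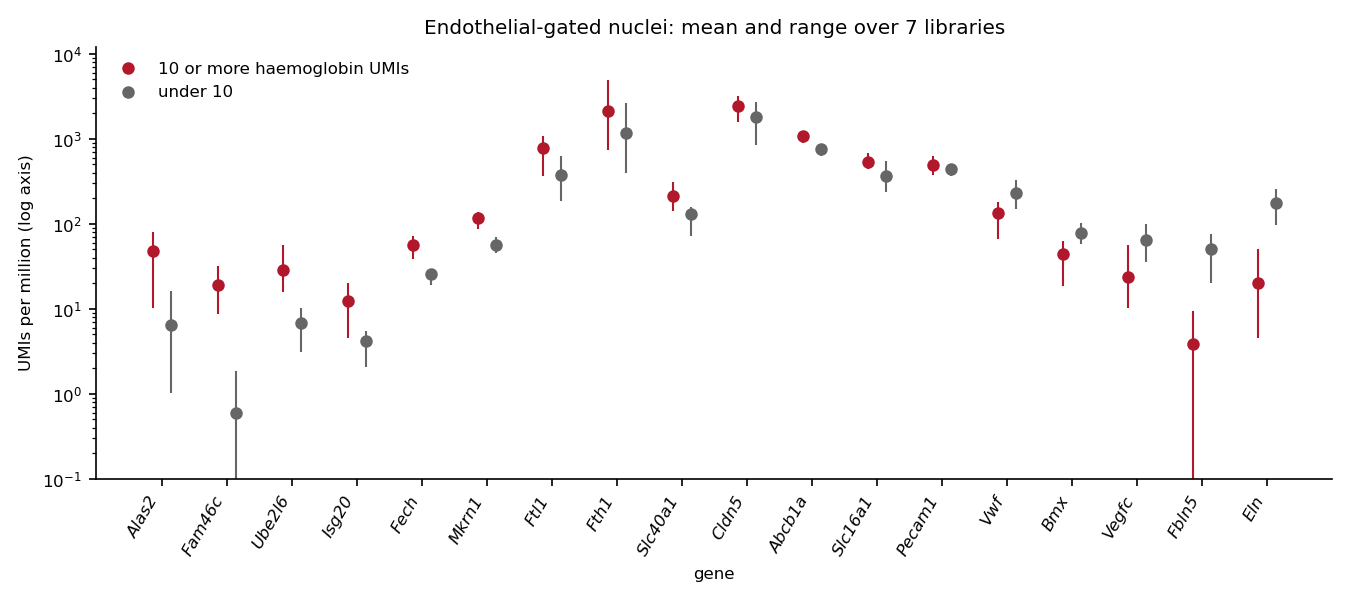
Genes in endothelial-gated barcodes with 10 or more haemoglobin UMIs (red) and under 10 (grey), in CPM of non-haemoglobin UMIs (log axis); points are means over 7 libraries and lines run from the lowest to the highest library, cut at the lower edge where a library is at 0. Alas2 and Fam46c are highest relative to the other barcodes, Cldn5 and Pecam1 lie close together, and Eln and Fbln5 are lower; the genes shown were chosen after their values were seen.

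Whether low haemoglobin counts in other nuclei differ with injury was tested per class in barcodes under the threshold. In the 11 classes with at least 20 such barcodes in every library, 30 pairs of a class and 1 of the 5 genes passed the filter on low counts. For TBI averaged over BCAS, 0 of the 30 were called by edgeR, as were 0% of all 110522 class-gene pairs (1336 had an unadjusted p under 0.05, and DESeq2 called 0), although 26 of 30 fold changes were positive. Hbb-bs had a log2 fold change of 1.47 (SE 0.61) in microglia, 1.05 (SE 0.78) in excitatory neurons and 0.65 (SE 0.44) in endothelial barcodes, each with an edgeR adjusted p of 1.00. The classes of a library share 1 suspension and are not separate evidence. Without BCAS+TBI 2, 8 of 34 such fold changes were positive.

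Among other genes, those whose level over the 8 libraries was most like summed haemoglobin were sought by the correlation of log2(CPM + 1) over 21005 genes with at least 10 UMIs in every library. Hspb8, a small heat shock protein, had r = 0.981, Cavin1, a caveolar coat gene of endothelium, 0.977, Gimap9 0.974, Rpl38-ps2 0.973 and Kctd11 0.972. Alas2 had r = 0.682 and ranked 4888th. These correlations share the library sets and are given without a test.

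Other globins were rare or of other kinds. The embryonic genes Hba-x, Hbb-bh1, Hbb-bh2 and Hbb-y had 0 UMIs in all libraries. Neuroglobin (Ngb) had 625 UMIs, 6 of them in haemoglobin-rich barcodes, and cytoglobin (Cygb) 2643, of which 74 were. Cygb was higher in haemoglobin-rich barcodes (17.8 ± 7.16 against 8.28 ± 1.14 CPM, n = 8 libraries; log2 fold change 0.83, edgeR adjusted p = 0.00121), but was not called within endothelial barcodes (0.57, SE 0.34, adjusted p = 0.239).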

How the data were processed

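UMI counts per gene and barcode, 1 matrix per library, were made with Cell Ranger 7.0.0 and deposited unnormalized, per the file headers. Seurat and the builds GRCm38 and mm10 are named in the submitters' processing notes, and no role is given for Seurat. How reads shared by near-identical genes were counted, and how nuclei were called, is not given in the sources used here. All 53390 deposited barcodes were used and no doublets were removed. The members and lists were chosen with earlier results of these data known, and the vessel lists, the endothelial-only comparison and the fit without TBI 1 and BCAS+TBI 2 after seeing the data.

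Haemoglobin UMIs are the sum over Hba-a1, Hba-a2, Hbb-bs and Hbb-bt. A barcode with at least 10 was called haemoglobin-rich (alternatives 5 and 20), and classes were gated on at least 3 markers and 2 more than any other class (alternative 4 and 3). Counts summed per library were tested with edgeR 4.0.16 in R 4.3.3 (quasi-likelihood, TMM, filterByExpr with a minimum count of 10, Benjamini-Hochberg threshold 0.05), with DESeq2 1.42.0 as an alternative. Group comparisons used all 8 libraries. Haemoglobin-rich and other barcodes were compared with library as a term, without haemoglobin UMIs in tests or totals, in libraries with at least 20 barcodes of each kind. Values of mean ± SD are over libraries.

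Named for this comparison were the 10 genes higher and 10 lower with the smallest p whose CPM did not overlap over libraries, without predicted, mitochondrial and haemoglobin genes, and genes of the erythroid, haem synthesis, haemoglobin clearance and other globin lists. Other genes named were chosen after their values were seen. Of the erythroid list 28 of 30 symbols matched, and some of its genes are not reported here. On simulated counts with 200 changed genes (seed 11), the TBI fit recovered 11.1% of 2-fold and 72.0% of 4-fold changes among 24090 genes, and the haemoglobin-rich fit 55.0% and 84.8% among 21793. Replicate numbers matched the library sets in control, BCAS and TBI, but were reversed in BCAS+TBI, so they were not used as pairs. Sequences came from RefSeq (GRCm38.p6) and GENCODE M21. Tables and figures used Python 3.11.15, numpy 2.4.6, pandas 2.3.3, scipy 1.17.1 and matplotlib 3.10.9.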

Additional observations from a re-analysis of the deposited data

Results flagged for a closer look

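The direction of haemoglobin RNA with TBI was opposite in the library sets, with both libraries of each kind on the same side. For summed haemoglobin the log2 ratio of mean CPM with TBI over without was 2.02 in set 1 and -0.89 in set 2. It was 1.92 and -0.71 for Hba-a1, 2.19 and -0.88 for Hba-a2, 2.05 and -1.01 for Hbb-bs, and 2.30 and -1.03 for Hbb-bt. The difference between the sets was not tested. Alas2, with -0.01 and 0.11, did not show it. The 4 haemoglobin genes were counted largely in the same few barcodes. In set 2, at least 50% of haemoglobin UMIs lay in 4 barcodes of control 2, 4 of BCAS 2, 6 of TBI 2 and 3 of BCAS+TBI 1. Under the threshold, set 2 ranges overlapped (15.7 to 20.7 CPM with TBI, 19.3 to 20.02 without). So did the haemoglobin-rich shares of endothelial barcodes (6.63% to 7.66% with, 6.56% to 8.21% without).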

How the results depend on the processing

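Each fit of groups has 2 libraries a group, and 1 or 2 libraries set the haemoglobin values, so the direction of the group differences depends on which are kept. No alternative called any of the 5 genes between groups. For TBI averaged over BCAS, Alas2 turned positive with DESeq2 (0.00056), RLE normalization (0.0022), no filter on low counts (0.018) and the library set as a block (0.044), all near its log2 fold change of -0.01. With the replicate number as a block it was 0.25, while Hba-a1 was 1.33, Hba-a2 1.25, Hbb-bs 1.41 and Hbb-bt 1.61. Libraries of the same number deviated together among control, BCAS and TBI (correlations of 0.569 to 0.687). They deviated oppositely where BCAS+TBI was in the pair (-0.763 to -0.683). The replicate number thus matches the library set except in BCAS+TBI, where it is reversed, and the block is given only for completeness. Without TBI 1 and BCAS+TBI 2, TBI log2 fold changes were -0.86 for Hba-a1, -0.70 for Hba-a2, -1.13 for Hbb-bs, -1.05 for Hbb-bt and -1.02 for Alas2, in a fit where all TBI libraries are of set 2. The interaction turned positive with the library set as a block for Hba-a2 (0.11) and Hbb-bt (0.019), in barcodes within quality limits for Hba-a2 (0.32), and in barcodes with under 10 haemoglobin UMIs for Hba-a1 (0.18) and Hba-a2 (0.47). The causes were not tested.

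Leaving out each library in turn gave these ranges. For TBI averaged over BCAS, Alas2 ranged from -0.71 to 0.63. For BCAS averaged over TBI, Hba-a1 ranged from -0.70 to 1.48, Hba-a2 from -0.43 to 1.495, Hbb-bs from -0.89 to 1.65, Hbb-bt from -0.60 to 2.05 and Alas2 from -0.21 to 1.00. For the interaction the ranges were -3.16 to 1.21, -2.12 to 1.73, -3.58 to 1.48, -3.35 to 1.95 and -1.03 to 1.65 in the same order. For BCAS+TBI against TBI they were -2.28 to 2.09, -1.49 to 2.36, -2.68 to 2.39, -2.28 to 3.02 and -0.72 to 1.37.

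Between haemoglobin-rich and other barcodes, 11568 genes were called, 8123 to 11839 under other settings on all barcodes, and 2562 within endothelial-gated barcodes, where fewer genes were tested. Alas2 kept its direction and call in all of these (log2 fold change 0.94 with a threshold of 5 and 2.33 with 20). Among the genes reported, calls were lost for Uros in most settings, for Cd163 with DESeq2, within quality limits and without BCAS+TBI 2, for Blvra within quality limits, for Fech (0.23) and Blvra with a threshold of 5, and for Sptb, Car2, Urod, Hmox1, Blvra and Tfrc within endothelial-gated barcodes. The comparison within ungated barcodes alone was not run, since 1 library had enough haemoglobin-rich ones.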
